A study of Mus musculus with 51 samples.

Results

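The transcripts described here are 36 heat shock protein and chaperone genes of the fetal mouse kidney, taken by name from a list of HSP70, HSP90, HSP40, HSP60/HSP10, small HSP, CCT, co-chaperone and heat shock factor genes. All 36 were rows of the expression table, which holds 16099 genes, and all 36 had a mean of at least 10, as did 14426 genes in all. The kidneys came from wild-type C57BL/6 embryos, and poly-A RNA was sequenced at 13 time points, named CT0 to CT48 and spaced 4 h apart. CT0 is embryonic day 18, CT24 is embryonic day 19 and CT48 is embryonic day 20. CT20 has 3 libraries and each other time point has 4, which makes 51 libraries labelled as biological replicates. The labels name no dam, litter or pooling of embryos, so the p-values measure the spread between these libraries. In whole kidneys, fewer cells of a type and less RNA per cell cannot be told apart.

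The values are normalised whole numbers, from a segment of CT0 to CT24 (27 libraries) and a segment of CT28 to CT48 (24). Gene by gene, means were almost equal in one segment and the other (SD of the log2 difference 0.017 over 12264 genes). Each gene thus appears to have been adjusted to a common mean in both segments, which would remove level differences between them. How this was done is not stated. Levels were therefore compared only within a segment. The 8 libraries of CT28 and CT32 stood apart on the first principal component (25.8% of the variance), at 23.02 to 43.2, against -32.3 to 8.44 for the other libraries, so values against CT36 are given beside those against CT32. All 8 kidney markers (such as Six2, Nphs1, Slc34a1 and Aqp2) were above 0 in every library. The summed level of 12 immediate early genes reached 25438 in CT36 replicate 4 and 21802 in CT48 replicate 2. The medians were 11407 at CT36 and 14432 at CT48. Without both libraries, 31 members differed among CT28 to CT48 and 8 between CT48 and CT40. With all libraries, 31 (64.7% of all genes) and 9 (13.9%) did. The shares of all genes without both libraries are not given here. The summed level of 8 skeletal muscle genes reached 3139 in CT40 replicate 3, 1197 in CT16 replicate 1, 1158 in CT0 replicate 3 and 1146 in CT36 replicate 4, where the medians of those time points were 376 to 486. Without CT40 replicate 3, 22 members were called for CT40 against CT32 (35.2% of all genes), against 25 with it (39%). For CT48 against CT40, 12 were called without it (16.2% of all genes) and 9 with it (13.9%). The highest liver sum (15050) was in CT40 replicate 1 and the highest erythroid sum (1869) in CT40 replicate 2.

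Chaperones bind unfolded proteins and help them reach or keep their folded state. HSP70 proteins work in cycles with J-domain proteins (HSP40) and nucleotide exchange factors such as HSP110, and pass some clients to HSP90, which works with co-chaperones. Cytosolic CCT folds actin and tubulin, HSP60 and HSP10 fold proteins in mitochondria, and heat shock factor 1 (Hsf1) binds heat shock elements, which are inverted repeats of the unit NGAAN, and drives many chaperone genes in stressed cells.

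Heat shock elements, the sites that Hsf1 binds, were looked for in the promoters, as a description of the members. RefSeq promoter windows (250 bases before to 50 after a gene's start, GRCm38.p6) were found for 29 of the 36 members. The 3-unit element (TTCNNGAANNTTC or GAANNTTCNNGAA, each the reverse complement of the other) was present in 5 of 29 members (17.2%), namely Hsph1, Hspd1, Hspe1, Dnajb6 and Chordc1, against 0.603% of 32851 promoter windows and 0.548% of 11129 tested genes. The shorter 2-unit element (TTCNNGAA or GAANNTTC), which overlaps the longer one where both are present, was in 15 of 29 members (51.7%), against 15.1% of the windows and 14.2% of the tested genes. The canonical E-box CACGTG, the site of the clock activators, was in 3 of 29 members (10.3%), Hsph1, Hspd1 and Hsf2, against 11.2% of the tested genes. Matches describe letters in a window, not bound sites. The windows below run from 250 bases before to 30 after the start, 5′ to 3′ on the gene's strand, with the 3-unit element in capitals, or the 2-unit element in the Hspa1b window, which has no 3-unit one. Further 2-unit matches in the other windows are left in lower case. Hspd1 and Hspe1 are divergent neighbours, so the element between them is printed once, on the strand of Hspe1. Dnajb6 is printed as a member with the element whose values hardly moved. The Hspa1b window differs from that of Hspa1a at 4 of 300 bases.
Hsph1, chr5:149636286-149636565 (minus strand): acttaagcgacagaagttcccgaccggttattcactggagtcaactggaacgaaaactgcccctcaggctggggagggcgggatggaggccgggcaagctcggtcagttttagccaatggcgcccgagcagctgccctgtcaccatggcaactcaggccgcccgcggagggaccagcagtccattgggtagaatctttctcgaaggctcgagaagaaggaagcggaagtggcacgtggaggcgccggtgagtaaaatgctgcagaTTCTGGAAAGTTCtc
Chordc1, chr9:18292017-18292296 (plus strand): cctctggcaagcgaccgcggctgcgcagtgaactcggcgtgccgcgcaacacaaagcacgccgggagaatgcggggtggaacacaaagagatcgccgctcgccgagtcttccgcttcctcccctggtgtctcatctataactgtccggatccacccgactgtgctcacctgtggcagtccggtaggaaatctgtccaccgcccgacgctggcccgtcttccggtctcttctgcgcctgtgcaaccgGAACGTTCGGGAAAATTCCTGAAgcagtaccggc
Hspe1, chr1:55087898-55088177 (plus strand): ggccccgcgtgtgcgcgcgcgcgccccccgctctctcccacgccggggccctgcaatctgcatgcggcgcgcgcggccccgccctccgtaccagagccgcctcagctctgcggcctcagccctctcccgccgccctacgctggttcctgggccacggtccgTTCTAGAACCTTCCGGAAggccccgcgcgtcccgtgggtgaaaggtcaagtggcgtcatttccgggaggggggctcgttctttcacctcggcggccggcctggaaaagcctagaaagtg
Dnajb6, chr5:29735648-29735927 (plus strand): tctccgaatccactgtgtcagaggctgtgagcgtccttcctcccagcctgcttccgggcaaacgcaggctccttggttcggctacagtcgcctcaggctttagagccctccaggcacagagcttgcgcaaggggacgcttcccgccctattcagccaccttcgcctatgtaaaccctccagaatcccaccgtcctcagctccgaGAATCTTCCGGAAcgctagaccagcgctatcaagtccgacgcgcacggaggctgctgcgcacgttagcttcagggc
Hspa1b, chr17:34959209-34959488 (minus strand): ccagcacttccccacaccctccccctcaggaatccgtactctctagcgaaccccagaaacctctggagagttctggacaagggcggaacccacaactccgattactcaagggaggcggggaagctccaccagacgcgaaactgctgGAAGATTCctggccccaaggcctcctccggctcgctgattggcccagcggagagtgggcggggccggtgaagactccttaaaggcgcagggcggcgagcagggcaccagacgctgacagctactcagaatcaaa

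Per kilobase of exon, mean levels over the 51 libraries spread over more than 2 orders of magnitude. Hsp90ab1, the constitutive cytosolic HSP90, was highest at 32388 per kb, and Hspa8, the constitutive HSC70, followed at 15405 per kb. Mitochondrial Hspd1 (6447 per kb) and Hspa9 (5165 per kb) came next. Hspa4l, an HSP110-type relative, was lowest at 63.3 per kb, and the stress-inducible Hspa1a stood at 113.05 per kb. The rank of Hspa4l depends on its exonic length, the longest of the members (11792 bases). Before division by length, the mean value of Hspa4l was 746, against 335 for Hspa1a. Since Hspa1a and Hspa1b are near-identical copies, their split is uncertain. Exons of 10 members overlap a gene on the other strand, and 7 members have named pseudogenes. Whether counting used strand is not stated, so Hspd1 and Hspe1, Cryab and Hspb2 and other such pairs may share reads.

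**Figure D1:**
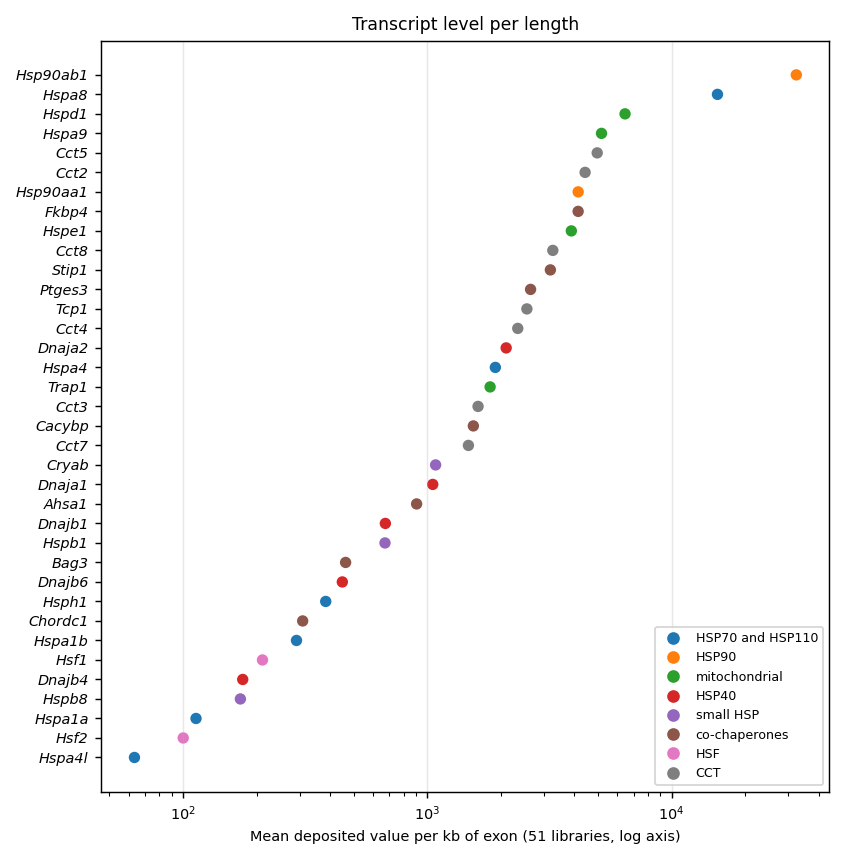
Mean deposited value per kilobase of exon for each of the 36 members over 51 libraries, on a log axis, with colours for the role groups. Hsp90ab1 and Hspa8 lie at the top, and Hspa4l lies at 63.3 per kb at the bottom.

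Within CT0 to CT24, 16 of 36 members had their highest mean at CT12, where 15.5% of all tested genes did, and 16 of 36 had their lowest at CT20, where 15% of all genes did. At CT8, CT12 and CT16, 30 to 32 of 36 members lay above their own segment mean (45.5% to 48.9% of all genes), and at CT20 5 of 36 did (57% of all genes). In CT28 to CT48, 10 of 36 members were highest at CT28 and 10 at CT32, where 24.5% and 18.6% of all genes were, and 15 of 36 were lowest at CT48, where 21.8% of all genes were. Any difference among time points passed limma's F test (adjusted p under 0.05) for 29 of 36 members in CT0 to CT24 (43.5% of all genes) and for 31 of 36 in CT28 to CT48 (64.7% of all genes). Without CT28 and CT32, 17 of 36 were called in the later segment, and 22.02% of all genes.

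**Figure D2:**
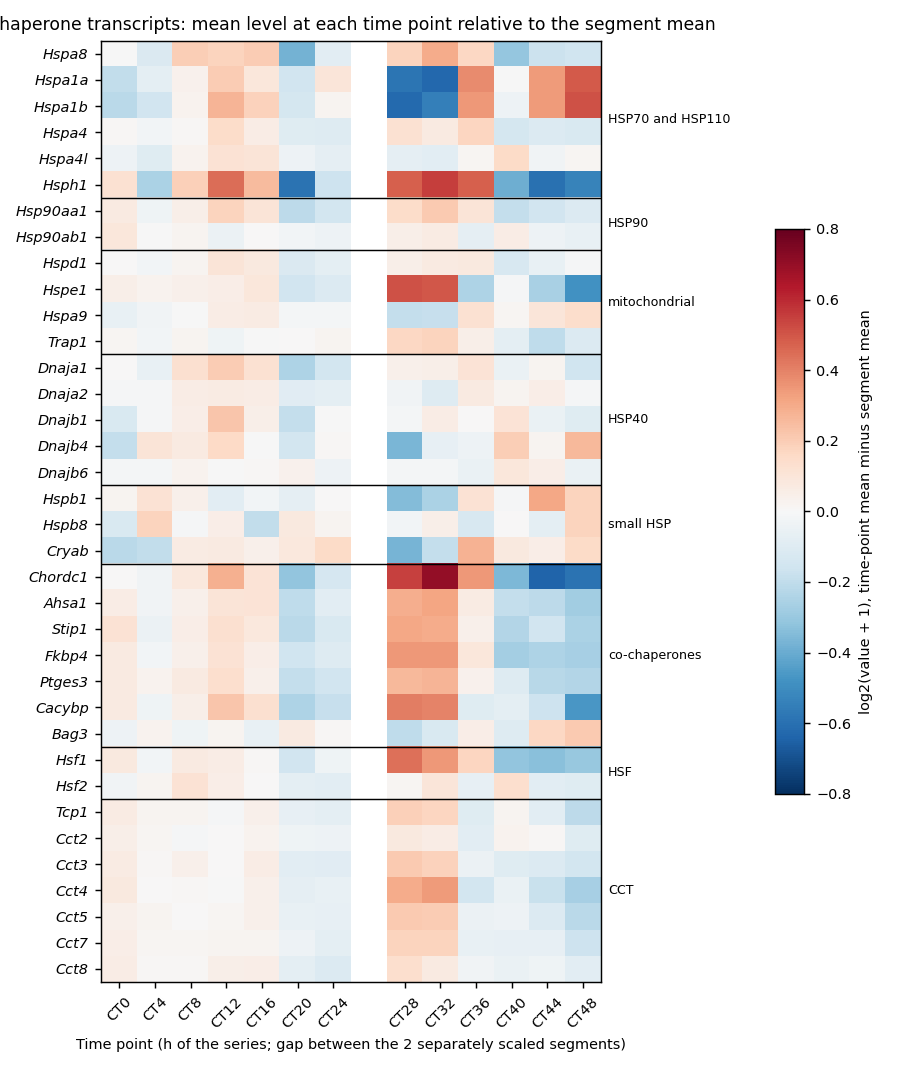
Mean log2(value + 1) of each member at each time point, minus the mean of its segment (CT0 to CT24, then CT28 to CT48 after the gap), in colour. Hspa8, Hsph1 and Chordc1 are high at CT8 to CT16 and at CT28 to CT36. They are low at CT20 and from CT40 to CT48, while most CCT genes are high at CT28 and CT32.

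Many cytosolic HSP70 and HSP90 system genes were lower at CT20, 20 h after CT0, than at CT12. Hsph1, the HSP110 exchange factor of HSP70, had 1619, 1812 and 1909 at CT20, against 3102, 3510, 3655 and 4401 at CT12. All CT20 libraries were below all CT12 libraries. The difference was -1.03 log2 (SE 0.09, limma adjusted p = 2.45e-07). Hspa8 had 46189, 52203 and 52234 at CT20, against 67762, 71828, 73213 and 82887 at CT12, again without overlap (-0.56 log2, SE 0.05, limma adjusted p = 4.08e-08). Chordc1, an HSP90-binding protein with CHORD domains, had 1689, 1772 and 1944 at CT20, against 2514, 2584, 2727 and 3141 at CT12. It fell by 0.60 log2 (limma adjusted p = 3.7e-06). Cacybp, a binding partner of the calcyclin protein, averaged 3067 ± 157 at CT20 and 4245 ± 334 at CT12 (SD, n = 3 and 4), and fell by 0.47 log2 (limma adjusted p = 2.53e-05).

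In all, 22 of 36 members passed, where 23% of all genes did: 22 of 36 members were lower at CT20 than at CT12 past the threshold, against 9.01% of all genes, and 0 were higher, against 13.9% of all genes. By limma at an unadjusted p under 0.05, 24 members were lower and 0 higher. By role, all 6 of the HSP70 and HSP110 genes fell, as did Hsp90aa1 (the inducible HSP90 form, by 0.39 log2), Hspd1, Hspe1, 4 of 5 HSP40 genes, 6 of 7 co-chaperones, Hsf1, Hsf2 and 1 of 7 CCT genes. Dnajb1, a J-domain partner of HSP70, had 1718, 1922 and 2005 at CT20, against 2407, 2481, 2483 and 2668 at CT12. Its groups did not overlap, and it fell by 0.42 log2 (limma adjusted p = 1.48e-07). Hsp90ab1, Hspa9, Trap1, Dnajb6, the small HSP genes and Bag3 did not pass. The Hsf1 difference, -0.21 log2 (adjusted p = 0.0472), was lost in 14 of 21 alternatives and has the largest adjusted p of the 22.

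The rise towards CT12 was led by the inducible HSP70 genes. Hspa1b had 912, 942, 945 and 1008 at CT12, against 632, 634, 728 and 730 at CT0. No CT12 library was as low as a CT0 library, and the difference was 0.48 log2 (SE 0.07, limma adjusted p = 1.55e-05). Its neighbour Hspa1a was higher by 0.40, Dnajb1 by 0.35 and Dnajb4, another J-domain gene, by 0.34 log2 (limma adjusted p = 0.000908, 1.09e-06 and 0.000168). In all, 12 of 36 members were higher at CT12 (8.6% of all genes). Hsp90ab1 was the only member lower past the threshold (9.96% of all genes), with 91312 to 96579 at CT12 and 100366 to 106211 at CT0 (-0.14 log2). All 6 HSP70 and HSP110 genes were among the 12, with Hspa9, 3 HSP40 genes, Cryab and Chordc1, and no CCT gene passed. Without replicate 2, or without replicate 3, of every time point, 8 members were called (12.1% and 6.14% of all genes). With all libraries, 13 were called (18.6%).

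A drop of similar genes came on embryonic day 19, and for several, such as Hsph1 and Chordc1, it lasted to CT48. Relative to the segment mean, Hsph1 lay at -0.39, -0.59 and -0.53 log2 at CT40, CT44 and CT48. Chordc1 lay at -0.36, -0.64 and -0.59 log2. Hspa8, Hsp90aa1 and Hsf1 were also below their segment mean at CT40, CT44 and CT48 (Hsf1 at -0.32, -0.34 and -0.31). At these time points 12, 11 and 9 of 36 members lay above it (51.1%, 48.4% and 50.2% of all genes). At CT16, the same clock hour as CT40, Hsph1 and Chordc1 lay above their segment mean, at 0.25 and 0.11 log2. Hsph1 had 1791, 1892, 2145 and 2182 at CT40, against 3284, 3651, 3821 and 4719 at CT32 and 3356, 3505, 3616 and 4144 at CT36. All CT40 libraries lay below those of both earlier time points (-0.94 log2 against CT32, limma adjusted p = 1.3e-05, and -0.87 against CT36, limma adjusted p = 0.000202). Chordc1 had 1426, 1632, 1874 and 1913 at CT40, against 2994, 3402, 3751 and 4151 at CT32 and 2443, 2503, 3051 and 3199 at CT36. It was lower by 1.06 log2 than at CT32 (limma adjusted p = 4.52e-08) and by 0.71 than at CT36 (limma adjusted p = 7.82e-05). Hsf1, the transcription factor of the heat shock response, had 1118, 1126, 1228 and 1268 at CT40, against 1749, 1879, 1929 and 1941 at CT32 and 1502, 1670, 1676 and 1808 at CT36. It fell in both comparisons without overlap, by 0.66 and 0.49 log2 (limma adjusted p = 1.06e-07 and 5.85e-05). Fkbp4, the immunophilin FKBP52 of steroid receptor complexes, had 9067, 9081, 9532 and 10004 at CT40, against 13068, 14094, 15421 and 15603 at CT32 and 11908, 12066, 12110 and 12375 at CT36. It was lower without overlap in both comparisons, by 0.62 and 0.36 log2 (limma adjusted p = 4.13e-08 and 0.000377).

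Against CT32, 25 of 36 members passed, where 39% of all genes did: 20 of 36 members were lower at CT40 (20.7% of all genes) and 5 were higher (18.3%). Against CT36, a comparison added after the data were seen, 11 of 36 were lower (9.27% of all genes) and 1 was higher (8.47%), Hsp90ab1 by 0.13 log2. The members lower past the threshold at CT20 against CT12, at CT40 against CT32 and at CT40 against CT36 numbered 10 of 36, where 1.41% of all tested genes were lower in all 3, namely Hspa8, Hspa4, Hsph1, Hsp90aa1, Hspd1, Chordc1, Ahsa1, Stip1, Fkbp4 and Hsf1. Both CT40 comparisons share the CT40 libraries.

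The cytosolic HSP90 forms and their co-chaperones were measured side by side. Hsp90aa1 had 13575, 14103, 14566 and 14598 at CT40, against 17876, 18209, 18915 and 19772 at CT32 and 16910, 17063, 17080 and 18373 at CT36. It was lower without overlap in both comparisons (-0.40 and -0.29 log2, limma adjusted p = 2.29e-06 and 0.000622). Hsp90ab1 had 93998, 103552, 103569 and 104058 at CT40, against 99881, 99897, 100590 and 105187 at CT32, and its groups overlapped (-0.002 log2, SE 0.04, limma adjusted p = 0.974). Against CT36 it was higher at CT40, as given above. The difference between the 2 forms was not tested. Stip1, also called HOP, which bridges HSP70 and HSP90, had 5487, 5570, 5654 and 5851 at CT40, against 7508, 7825, 8262 and 9035 at CT32 and 6605, 6714, 6965 and 7072 at CT36. Ahsa1, which stimulates the HSP90 ATPase, had 3143, 3376, 3519 and 3642 at CT40, against 4469, 4763, 4951 and 5302 at CT32 and 3854, 3974, 4250 and 4283 at CT36. Both were lower at CT40 than at CT32 without overlap (-0.53 log2 for Stip1 and -0.51 for Ahsa1, limma adjusted p = 7.61e-08 and 4.3e-07). Against CT36 they were lower by less (-0.28 log2 for Stip1 and -0.26 for Ahsa1, limma adjusted p = 0.00134 and 0.0046), again without overlap.

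J-domain genes hand clients to HSP70. Dnaja1 had 7433, 7608 and 7625 at CT20, against 9269, 10028, 10458 and 11742 at CT12. It fell by 0.45 log2 there (limma adjusted p = 2.7e-06), and it also fell at CT40 against CT36, without overlap, by 0.16 log2 (limma adjusted p = 0.0304). Against CT32 the CT40 difference was -0.10 log2 (limma adjusted p = 0.13). Dnajb4 had 1530, 1799, 1835 and 1901 at CT40, against 1382, 1447, 1485 and 1559 at CT32, and was higher by 0.26 log2 (limma adjusted p = 0.0244). Against CT36 the call was lost (0.24 log2, limma adjusted p = 0.0717), and the groups overlapped. Dnajb6 did not pass in any of the contrasts or F tests. Among the HSP110-type genes, Hspa4 had 9102, 9326, 9391 and 10093 at CT40, against 10590, 10730, 11215 and 11382 at CT32, and fell by 0.21 log2 (limma adjusted p = 0.00104). It fell by 0.31 log2 against CT36 (limma adjusted p = 9.19e-05). Hspa4l did not pass at CT40 against CT32 (0.23 log2, limma adjusted p = 0.0855) or against CT36 (0.14 log2, limma adjusted p = 0.408).

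**Figure D3:**
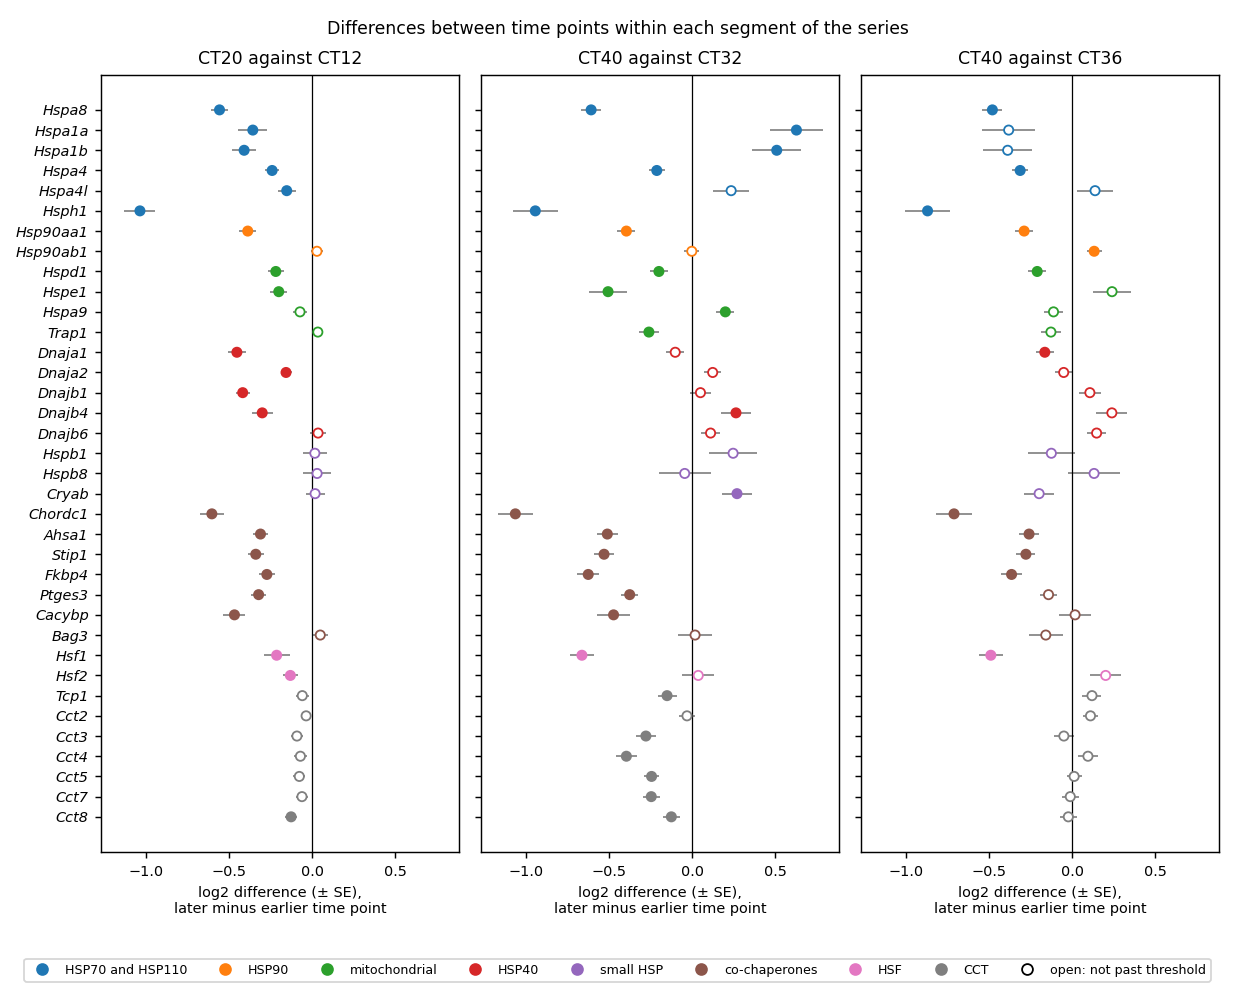
Log2 difference ± SE, later minus earlier time point, for each member in CT20 against CT12, CT40 against CT32 and CT40 against CT36. Filled points have a limma adjusted p under 0.05. Hsph1 and Chordc1 lie farthest left in all 3 panels, and the Hspa1 genes lie right of 0 only against CT32.

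Some members were lowest at CT28 and CT32. Hspa1b had 567, 735, 860 and 994 at CT40, against 505, 537, 563 and 570 at CT32. The groups overlapped only at their edge, and the difference was 0.51 log2 (limma adjusted p = 0.00736). Hspa1a (0.63), Cryab (0.27), Dnajb4 (0.26) and Hspa9 (0.20) were also higher at CT40 than at CT32. Against CT36 the sign turned for Hspa1a (-0.38), Cryab (-0.20) and Hspa9 (-0.11 log2), without a call, and Dnajb4 lost its call. Against CT36 the Hspa1b difference was -0.39 log2 (limma adjusted p = 0.0667), and the CT36 libraries had 878, 883, 1102 and 1222. Cryab, the small HSP alpha-B crystallin, had 1730, 1920, 1997 and 2004 at CT36, and 1174, 1181, 1232 and 1281 at CT28. Bag3, which couples HSP70 to small HSP proteins, averaged 1376 at CT48 and 1035 at CT28. Hspb1, HSP27, averaged 861 at CT44 and 551 at CT28. Hspb8, another small HSP, did not pass the F test in CT28 to CT48 (adjusted p = 0.513).

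Hspe1, the HSP10 lid of the HSP60 chamber, had 7387, 7625, 8244 and 8492 at CT28 and 3576, 3696, 3980 and 4758 at CT48, a 1.99-fold range of means in CT28 to CT48. In CT0 to CT24 its means lay between 5067 and 5976. Hspd1, the HSP60 chamber itself, ranged 1.16-fold in each segment. Hspa9, the mitochondrial HSP70, was highest at CT48 (24509 ± 924, SD, n = 4), and Trap1, the mitochondrial HSP90, was highest at CT32.

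The CCT genes, subunits of a single ring complex, differed by small amounts. All 7 were highest at CT0 within CT0 to CT24, where 17.5% of all genes were. At CT24, 7 of 7 were lower than at CT0 past the threshold (12.2% of all genes), by 0.09 (Cct2) to 0.17 (Cct8) log2. Cct4 had 7669, 7956, 8332 and 8594 at CT48, against 8553, 8952, 9917 and 10319 at CT40, and 11457, 12097, 12236 and 12294 at CT28. CT40 and CT48 overlapped, and the difference, -0.21 log2, passed (adjusted p = 0.0207). The CT28 libraries were above all of those at CT40 and CT48. At CT40 against CT32, 6 of 7 CCT genes were lower (20.7% of all genes), all but Cct2. Against CT36, 0 of 7 passed limma's test (17.7% of all genes). Tcp1 and Cct2 had an unadjusted p under 0.05 there, and both were higher at CT40 (0.12 and 0.11 log2).

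At CT24 against CT0, 1 day apart at the same clock hour, 18 of 36 members were lower (12.2% of all genes) and 5 higher (14.3%). The largest falls were Hsph1 (-0.29), Cacybp (-0.25), Stip1 (-0.24) and Ptges3, the HSP90 co-chaperone p23 (-0.23 log2). Cryab rose most, by 0.37 log2, with 1629, 1774, 1838 and 1867 at CT24 against 1342, 1370, 1379 and 1394 at CT0 (limma adjusted p = 6.38e-06). Hspa1a (0.29), Hspa1b (0.24), Dnajb4 (0.20) and Dnajb1 (0.12) were also higher. At CT48 against CT40, 3 members rose (Hspa1b, Hspa1a and Bag3, by 0.55, 0.49 and 0.32 log2, against 6.5% of all genes) and 6 fell (7.39%), led by Hspe1 (-0.48), Cacybp (-0.39), Tcp1 (-0.23) and Cct4 (-0.21). For CT48 against CT40, 0 members were called without replicate 1 of every time point (5.07% of all genes). By limma, 15 then had an unadjusted p under 0.05. Without replicate 4, 3 were called (7.2% of all genes). Without CT40 replicate 1, CT40 replicate 4, CT48 replicate 1 or CT48 replicate 3, 5 were called (8.23%, 7.35%, 10.4% and 8.87%). For CT24 against CT0, 13 were called without replicate 2 and 11 without replicate 3 (15.6% and 13.8% of all genes). At CT32 against CT28, 0 of 36 passed the limma test (0.118% of all genes, 0.097% higher and 0.0208% lower). Dnajb4 alone had an unadjusted p under 0.05.

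A 24 h cosine was fitted to all 51 libraries, with a line and a step between the segments. It called 14 of 36 members (12.3% of all genes). The largest amplitudes were those of Hsph1, 0.37 log2 (SE 0.07, peak at 9.67 h, adjusted p = 0.00112), Chordc1, 0.36 (peak at 8.87 h, adjusted p = 0.000812), and Hspa8, 0.21 (peak at 8.90 h, adjusted p = 0.000703). Hsf1 followed at 0.18 with a peak at 7.48 h. Of the 14, 5 had a peak-to-trough ratio of at least 1.2 (5.52% of all genes). With each time point reduced to its mean, 0 members passed (0% of all genes), with 5 at an unadjusted p under 0.05 by limma. With an estimated correlation within time points, 0 passed (0.0139% of all genes), with 12 at an unadjusted p under 0.05. Without replicate 2, 3 or 4, 6 to 8 passed (1.55% to 2.22% of all genes). The 14 calls therefore rest on treating libraries of a time point as independent. In the authors' deposited table, the combined rhythm test gave q under 0.05 for 29 of 36 members and for 41.3% of genes. Its periods varied by gene, from 20 h (Hspd1) to 28 h (such as Hspa1a) among the members. The 29 is therefore not a count of 24 h rhythms.

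**Figure D4:**
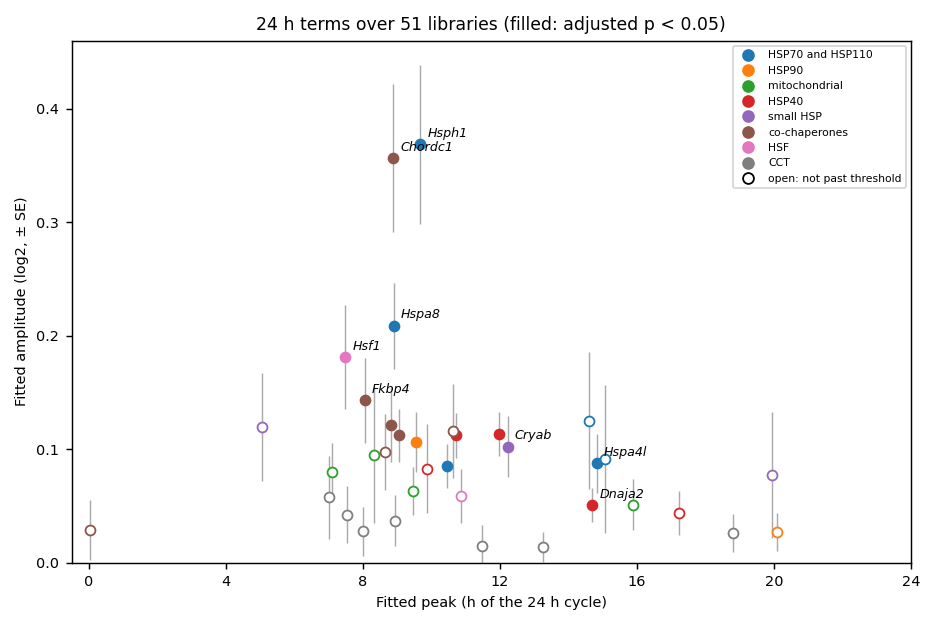
Fitted amplitude (log2, ± SE) of the 24 h terms against the fitted peak hour for the 36 members over 51 libraries, with filled points for a limma adjusted p under 0.05. Hsph1 and Chordc1 stand above the rest, with peaks at 9.67 and 8.87 h.

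The profile over the 6 shared clock hours differed between the days for 31 of 36 members (57.8% of all genes). Hspa8 and Chordc1 were among them (limma adjusted p = 2.51e-10 and 3.39e-10). Without CT28, CT32 and their clock-hour partners CT4 and CT8, 15 of 36 were called, and 12.8% of all genes. Hsp90ab1, Hspa4l, Dnajb6, Hspb8 and Hsf2 were not called.

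Other chaperone-network genes, 75 of 77 listed and 73 tested, were counted in the same contrasts: at CT20 against CT12, 24 were lower and 2 higher (9.01% and 13.9% of all genes). At CT40, 33 were lower and 8 higher than at CT32 (20.7% and 18.3% of all genes), and 19 lower and 2 higher than at CT36 (9.27% and 8.47%). Of the 15 chaperones of the endoplasmic reticulum, 15 were lower at CT20 than at CT12 (9.01% of all genes), 13 at CT40 than at CT32 (20.7%) and 12 at CT40 than at CT36 (9.27%). Hspa5 (BiP) had 18344, 19464 and 22007 at CT20, against 27558, 28208, 28890 and 34490 at CT12 (-0.58 log2, limma adjusted p = 6.9e-07). It had 18459, 18482, 18606 and 19996 at CT40, against 28884, 30232, 34052 and 36901 at CT32 (-0.78 log2, and -0.68 against CT36). Sdf2l1, a partner of BiP, fell by 0.62 log2 at CT20 against CT12, by 1.76 at CT40 against CT32 and by 0.86 at CT40 against CT36. At CT48 against CT40, 5 of 15 of these genes were higher (6.5% of all genes), Hspa5 among them by 0.34 log2. Of 20 further co-chaperone genes, 9 were lower and 3 higher at CT40 than at CT32 (20.7% and 18.3% of all genes), and 4 lower and 0 higher than at CT36 (9.27% and 8.47%). By limma at an unadjusted p under 0.05, 3 of them were higher than at CT36. Fkbp5, an immunophilin and a target of the glucocorticoid receptor, was higher at CT40 than at CT32 by 1.11 log2 (adjusted p = 0.00481), while against CT36 it was 0.22 (adjusted p = 0.65). None of the 5 prefoldin genes tested, which deliver actin and tubulin to CCT, passed limma's test at CT20 against CT12, and 0 had an unadjusted p under 0.05.

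Cirbp and Rbm3, RNA-binding proteins whose transcripts increase in mild cold in cultured mammalian cells, were higher at CT20 than at CT12 and at CT40 than at CT32. Cirbp had 4035, 4299 and 4436 at CT20, against 1561, 1715, 1726 and 2241 at CT12. It had 4983, 5168, 5226 and 5266 at CT40, against 1091, 1156, 1253 and 1333 at CT32 and 2201, 2315, 2778 and 2808 at CT36. The differences were 1.25, 2.10 and 1.04 log2 (limma adjusted p = 3.2e-05, 3.7e-15 and 1.3e-07), with no overlap in any. Rbm3 was higher by 0.36, 0.51 and 0.23 log2. No relation between these genes and the chaperones was tested.

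**Figure D5:**
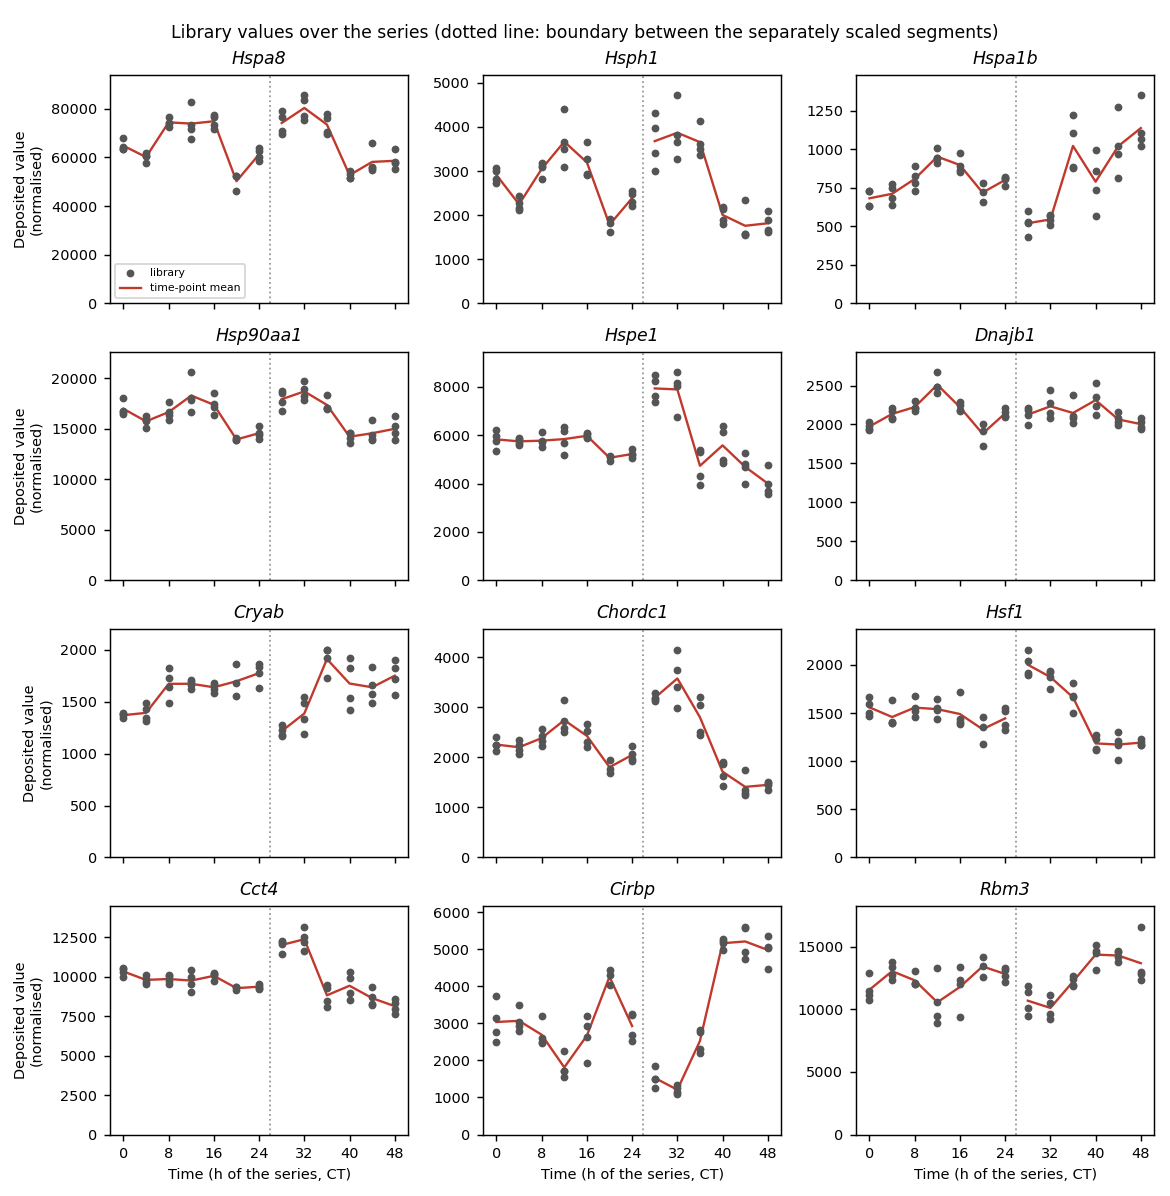
Deposited values of 10 members and of Cirbp and Rbm3 in each library (points) with the time-point means (line), from CT0 to CT48. Hspa8, Hsph1, Hsp90aa1 and Chordc1 are low at CT20 and from CT40 to CT48, where Cirbp is high.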

How the data were processed

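Per the labels' protocols, fetal kidney RNA was enriched for poly-A and made into Illumina TruSeq libraries. The submitters' processing notes name bcl2fastq, STAR 2.5.2b, featureCounts 1.5.0-p3 and mm10; annotation, strand setting and normalisation were not given in the sources used here. Values deposited by the authors are treated as a score: they are whole, but library totals of 34226024 to 35711911 are too alike for raw counts, so depth is unknown and no counting interval is given. The authors' deposited table of rhythm tests holds p-values and q-values, and period, phase and amplitude scores, per the file headers.

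Values were fitted with limma 3.58.1 (R 4.3.3) on log2(value + 1), with trend and robust moderation, for the 14426 genes with a mean of at least 10. Fold changes of low genes are understated on this scale. Each segment was fitted alone, since the median SD within time points was 0.0745 for CT0 to CT24 but 0.136 for the later segment. Benjamini-Hochberg adjusted p under 0.05 over all tested genes was the threshold, and the models were tested on simulated data. Named members are those with up to 4 largest differences past the threshold in each direction per contrast, and the member of each role group with the smallest p. Members and lists were chosen with earlier results of these data known. Alternatives were other filters, pseudocounts and fits, and libraries or time points left out; the CT36, CT28 and CT32, and immediate early ones were chosen after seeing the data. Replicate numbers mark no shared dam or day in the labels. Exon lengths come from GENCODE M21, promoters from RefSeq. Marker lists of kidney, skeletal muscle, liver, adrenal, adipose and erythroid cells were summed per library. Over all time points, liver sums lay between 7702 and 15050, adrenal sums between 181 and 623, adipose sums between 5183 and 12298, and erythroid sums between 752 and 1869. The adrenal sum of 623 was in a CT28 library, where the median was 220.5. A CT24 library reached 450, where the median was 246.5. Most of the adipose sum was Fabp4 (mean 8463), while Adipoq, Plin1 and Cidec averaged 1.24, 3.61 and 2.94. Most of the liver sum was Afp (mean 7265) and Ttr (mean 2099), while Alb averaged 211. These sums therefore do not measure adipose or liver content.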

Additional observations from a re-analysis of the deposited data

Results flagged for a closer look

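Within the described members, 5 of 120 groups held a library far from its neighbours, and chance flags about 1 in 20 groups. Hsf1 had 1639 in CT4 replicate 2, where the others had 1396 to 1404, and 1721 in CT16 replicate 2, where the others had 1389 to 1441. CT44 replicate 1 had 65792 for Hspa8 (others 54911 to 56224) and 2331 for Hsph1 (others 1554 to 1575). Hsp90aa1 had 18373 in CT36 replicate 3, where the others had 16910 to 17080.

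The clock-hour profile differed between the days for 31 of 36 members, by limma's test of the interaction. Adjusted p-values were 3.391e-10 for Chordc1, 1.182e-08 for Hsf1, 2.511e-10 for Hspa8, 2.695e-09 for Cct4, 0.001634 for Dnajb1, 1.05e-07 for Hspe1, 2.516e-06 for Hsp90aa1, 0.006357 for Cryab, 1.437e-07 for Hsph1 and 3.816e-07 for Hspa1b. The days differ in segment, and CT28 and CT32 stand apart, so day and scaling cannot be told apart.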

How the results depend on the processing

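For the 24 h rhythm, of 14 members (12.3% of all genes), 0 were called with time-point means as the unit (0% of all genes). With an estimated correlation within time points, 0 were called (0.0139%). A line and no step gave 28 (44.4%). Without CT0 or without CT12, 8 were called (4.15% and 6.47%), and 9 without CT32 or without CT44 (4.61% and 5.12%). Without each replicate, 6 to 10 were called, with 1.55% to 2.22% of all genes without replicate 2, 3 or 4. With all 51 libraries in the fit, 18 members (of 29) were called for any difference in CT0 to CT24, 7 for CT12 against CT0, 11 for CT24 against CT0, 1 for CT32 against CT28 and 16 for CT48 against CT40; the last had 5 with only its 2 time points. Leaving out each replicate or library gave 20 to 31 for any difference in CT0 to CT24, 28 to 31 in CT28 to CT48, 28 to 30 for the interaction, 8 to 18 for CT12 against CT0, 17 to 25 for CT20 against CT12, 11 to 23 for CT24 against CT0, 19 to 26 for CT40 against CT32 and 0 to 12 for CT48 against CT40 (without replicate 1, 0 members, with 15 at an unadjusted p under 0.05). Shares of all genes without replicate 3 were 6.14% for CT12 against CT0 and 13.8% for CT24 against CT0. The share without replicate 1 was 5.07% for CT48 against CT40. Without CT28 and CT32, 17 members differed in CT28 to CT48 (22.02% of all genes). Without CT28, CT32, CT4 and CT8, 15 profiles differed between days (12.8%). With CT36 in place of CT32, 12 members were called at CT40 (17.7% of all genes). The sign turned, with no call, for Hspa1a (-0.38), Hspa1b (-0.39), Hspe1 (0.24), Hspa9 (-0.11), Cryab (-0.20), Cacybp (0.017), Tcp1 (0.12), Cct4 (0.095) and Cct5 (0.012). The cause was not tested. Replicate numbers did not pair the samples (correlations of their deviations -0.25 to 0.16 in the contrasts, and -0.30 to 0.38 over all pairs of time points); with the replicate block, 14 members were called for the rhythm, 30 and 31 for the differences within each segment, 15, 21, 24, 0, 25 and 9 for the contrasts in order of time, and 31 for the interaction. Depth is unknown, so no limit from it can be given.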
